A study of Mus musculus with 125 samples.

Results

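A group of 6 genes of an RNA and chromatin programme of early development was followed through the endothelium, the cell layer that lines blood vessels, of the mouse. They are Hmga2, Lin28a, Lin28b, Igf2bp1, Igf2bp2 and Igf2bp3, 6 of 27998 genes in the single-cell tables and of 21631 protein-coding genes placed on the ATAC-seq peak lists. The members were chosen by their names and by their fall from embryo to adult in these same files, so the values below describe them and no test is attached. Read as counted mainly before birth, the label of fetal genes only restates that choice, here for Hmga2, Lin28b, Igf2bp1 and Igf2bp2. Hmga2 and Lin28b were already low at E16.5. Lin28a was counted almost only at E9.5, with 910 UMIs there, 1 at E12.5 and 0 later, so its values are those of the early embryo. Igf2bp3 was also counted mostly before birth, with 5714, 5199 and 1377 UMIs in the embryonic libraries. It was still counted later, with 460 UMIs at P8 and 183 in the adult. Its adult level was not apart from that of barcodes outside the endothelial gate.

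Lin28a and Lin28b encode RNA-binding proteins that hold back the let-7 microRNAs, a family that accumulates as tissues mature. Hmga2, a DNA-binding protein with AT-hook motifs that bends chromatin, is among the best known RNAs silenced by let-7. The Igf2bp proteins bind RNAs such as Igf2, H19 and Actb through KH domains and control their stability and location. The RNAs of the Igf2bp genes are also known let-7 targets.

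The single-cell RNA-seq came from 1 library per age, of cells caught on CD31 beads, from whole brains of E9.5, E12.5 and E16.5 embryos and from the cortex of pups at P8 and of adults of 2 months. Embryonic and postnatal tissue were dissociated by different methods, so age, brain part and dissociation cannot be told apart. With 1 library per age, age and library cannot be told apart at any step, those within the embryo included. ATAC-seq, a readout of accessible chromatin, used nuclei of mice given tamoxifen at 0.015 mg per kg to switch on a GFP reporter in vessels, and each list is labelled endothelial or input, the nuclei of whole tissue. The labels name neither the strain nor the driver of the reporter. Injections were at E10.5 for embryos, at P1 and P3 for pups, and 7 days before collection for adults, which were also of 2 months. There are 37 endothelial lists, of which 11 are from E12 (brain 3, heart 4, trunk 4), 14 from P6 and 12 from adults, and 29 input lists, 3, 16 and 10 in the same order. The E16.5 single-cell matrix has a file name that gives a later embryonic day than its label, so its age is uncertain and is given as labelled. The protocol text places the collection of the E12 group at E12.5 and of the P6 group at P7. Brain, heart, retina, lung, liver and kidney were taken at P6 and in adults. Nothing in the labels says that replicates came from separate animals.

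Endothelial barcodes were those with at least 200 genes, a mitochondrial share of at most 10% and a UMI (a counted RNA molecule) of at least 3 of Cdh5, Pecam1, Egfl7, Esam, Tie1 and Kdr. In order of age they numbered 5644, 6347, 3786, 4778 and 3154, with 23250196 to 80364390 UMIs per library and a median of 4896 to 10469 per barcode. Passing barcodes outside the gate had a median of 2362, 6975, 5165, 1554 and 2350 UMIs in the same order. Endothelial barcodes of low depth can miss the gate, so those outside it can include endothelial cells. At least 3 of 7 other endothelial markers, such as Cldn5, were found in 89.9 to 99.5% of them. Erythroid markers stood out among those of other cells: at least 3 of 6 were found in 53.2% of the E9.5 and 42.6% of the E12.5 endothelial barcodes, against 1.71 to 6.72% at the later ages, and their summed level ran from 3112 UMIs per 1000000 UMIs (CPM) at E9.5 to 13393 at E12.5 and was 3297 in the adult, where Hba-x and Hbb-y were at 0. Mural and fibroblast markers moved the other way, from 0.372% of barcodes with at least 3 of 7 at E9.5 to 7.36% in the adult. The part of these cells in the members' levels was not tested. No doublet caller was run. Barcodes over the mitochondrial limit numbered 7279 at E9.5, 1620 at P8 and 1276 in the adult, against 62 at E12.5 and 8 at E16.5. The matrices thus differ in this respect between ages, and its part in the members' steps was not tested. Pairs of libraries shared at most 35 endothelial barcodes, those at E12.5 and E16.5. In the ATAC-seq lists, a peak lay at the start of all 5 endothelial markers with a listed start in every E12 endothelial list, of 4 to 5 at P6 and of 3 to 5 in adults, and of 0 to 5 in input lists. E12 endothelial lists held 39096 to 120456 peaks, P6 lists 27160 to 92863 and adult lists 19464 to 47334.

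Both Lin28 genes were counted almost only before birth. Lin28a, the paralog first described in pluripotent cells, gave 910 UMIs in the E9.5 library, 1 in that of E12.5 and 0 in each later one. In CPM, with an exact Poisson interval of 95% that covers counting error only, its level was 19.9 (18.6 to 21.2) at E9.5 and 0.0124 (0.000315 to 0.0693) at E12.5. A count of 0 allows up to 3 UMIs, which is 0.0706 CPM at E16.5, 0.0496 at P8 and 0.129 in the adult. The level was at least 154-fold lower in the adult than at E9.5, a bound that fell to 82.1 with a mitochondrial share of at most 5%. Lin28b, its paralog, gave 1262, 389, 38, 2 and 0 UMIs in order of age, or 27.6, 4.84, 0.894, 0.0331 and 0 CPM. Its level stepped down at each age up to P8, beyond counting error, and was at least 214-fold lower in the adult than at E9.5, or 117-fold under that stricter share. Thus Lin28a was left at 1 UMI by E12.5, where Lin28b still had a UMI in 5.81% of endothelial barcodes.

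The Lin28 proteins act on the precursors of let-7, so the family is shown here with the seed, bases 2 to 8, in capitals. The sequences are those of RefSeq on GRCm38.p6, where 10 of 11 mature let-7 and miR-98 entries share 1 seed and let-7j differs at its last base.
let-7a-5p: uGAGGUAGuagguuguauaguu
let-7d-5p: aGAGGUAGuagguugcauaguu
let-7g-5p: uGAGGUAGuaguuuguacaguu
miR-98-5p: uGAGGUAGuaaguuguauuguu
let-7j: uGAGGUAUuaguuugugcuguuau
The Lin28 zinc knuckles are known to grip a GGAG motif in the loop of the precursor. It lies between the arms of 8 of the 11 hairpins for which both arms are listed, and the first pair below carry it in capitals while Mirlet7b does not.
Mirlet7g: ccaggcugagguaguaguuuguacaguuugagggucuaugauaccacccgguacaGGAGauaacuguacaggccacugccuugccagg
Mirlet7f-2: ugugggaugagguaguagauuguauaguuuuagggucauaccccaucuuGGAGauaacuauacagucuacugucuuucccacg
Mirlet7b: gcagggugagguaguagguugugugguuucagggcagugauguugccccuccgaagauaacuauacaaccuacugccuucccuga

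At E9.5 Lin28a was not particular to the endothelial barcodes. Among passing barcodes outside the endothelial gate it stood at 33.4 CPM (30.6 to 36.4), and in the 353 of them with at least 3 epithelial markers at 82.1 (71.7 to 93.6). The 199 barcodes with macrophage markers had 2.97 CPM (1.09 to 6.46) at a median depth of 10027 UMIs, against 7158.5 in endothelial barcodes. After each barcode was thinned to 2000 UMIs, which left 5372 of 5644 endothelial and 2349 of 4253 other barcodes, 3.83% of endothelial and 6.13% of other barcodes had a Lin28a UMI, where unthinned shares were 13.3 and 9.66%. Lin28b was alike inside and outside the gate, at 27.6 (26.1 to 29.2) and 28.3 (25.7 to 31.1) CPM.

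Hmga2 fell over the whole embryonic course. Its 21830, 3635, 136, 41 and 19 UMIs gave 477 CPM (471 to 484) at E9.5, 45.2 (43.8 to 46.7) at E12.5, 3.20 (2.69 to 3.79) at E16.5, 0.678 (0.487 to 0.920) at P8 and 0.817 (0.492 to 1.28) in the adult. Each embryonic level was apart from the next beyond counting error, and those at P8 and in the adult overlapped. The step was 10.55-fold (10.2 to 10.9) from E9.5 to E12.5, 14.1-fold (11.9 to 16.9) to E16.5 and 4.72-fold (3.31 to 6.87) to P8. A UMI was found in 85.6% of E9.5 endothelial barcodes and in 0.571% of adult ones, and after thinning to 2000 UMIs in 56.2 and 0.134%. Outside the gate Hmga2 was at 339 CPM (330 to 349) at E9.5 and at 47.5 (44.0 to 51.2) at E12.5. How much of the UMIs outside the gate came from free RNA was not estimated, and the mix of cells there differed between ages.

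The Igf2bp genes fell at each age up to P8, with their largest step from E16.5 to P8, where brain part and dissociation also change. Igf2bp1, a regulator of messenger RNA transport known as the zipcode-binding protein, gave 7931, 5130, 931, 8 and 1 UMIs. Its level was 173 CPM (170 to 177) at E9.5, 63.8 (62.1 to 65.6) at E12.5, 21.9 (20.5 to 23.4) at E16.5, 0.132 (0.0571 to 0.261) at P8 and 0.0430 (0.00109 to 0.240) in the adult. Its steps before birth were under 3-fold each, and the step from E16.5 to P8 was 166-fold (83.7 to 385). At E12.5 the 1901 passing barcodes outside the gate had 37.2 CPM (34.1 to 40.4), and the 209 of them with mural and fibroblast markers 66.1 (52.9 to 81.5), level with the endothelial barcodes. At P8 the 128 barcodes outside the gate with mural and fibroblast markers held 11.8 CPM (5.39 to 22.4), from 9 UMIs, against 0.132 in endothelial barcodes. Igf2bp2, known for its place in metabolic regulation, gave 2610, 2368, 448, 35 and 11 UMIs, or 57.1, 29.5, 10.54, 0.579 and 0.473 CPM. Its step from E16.5 to P8 was 18.2-fold (12.9 to 26.5), and the interval at P8 (0.403 to 0.805) overlapped that of the adult (0.236 to 0.847). At E12.5 the endothelial level of 29.5 CPM (28.3 to 30.7) lay above the 16.1 (14.1 to 18.3) of all barcodes outside the gate but not above the 40.2 (30.1 to 52.6) of the 209 with mural and fibroblast markers, and at E9.5 the intervals overlapped.

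Igf2bp3, a family member often found again in tumours, was still counted after birth. It gave 5714, 5199, 1377, 460 and 183 UMIs, or 124.9, 64.7, 32.4, 7.61 (6.93 to 8.34) and 7.87 CPM (6.77 to 9.10). From E16.5 to P8 it was 4.26-fold lower (3.83 to 4.74), and from P8 to the adult the ratio was 0.967 (0.813 to 1.15). Adult barcodes outside the gate held 7.47 CPM (3.98 to 12.8) from 13 UMIs, so the adult level was not apart from theirs. How much of it was free RNA was not estimated. After thinning to 2000 UMIs, 1.91% of 2982 adult endothelial and 2.20% of 273 other barcodes had an Igf2bp3 UMI. The adult endothelial share was thus not above that of the barcodes outside the gate. Since those can include endothelial barcodes of low depth, the likeness does not tell which cells held the RNA. At E16.5 the 53 barcodes with macrophage markers held 97.9 CPM (65.6 to 141), above the endothelial 32.4 (30.7 to 34.2).

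**Figure D1:**
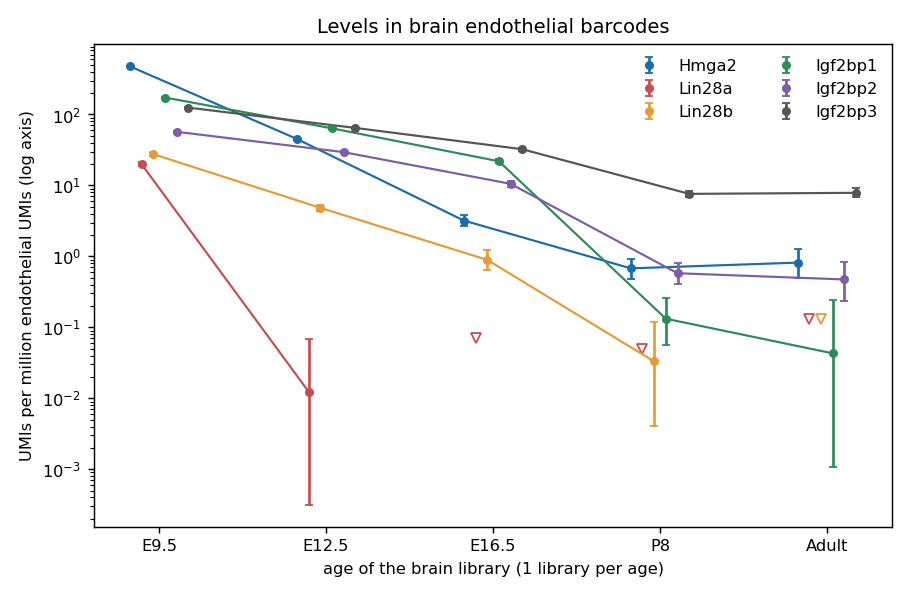
CPM of endothelial barcodes on a log axis against the age of the brain library, 1 line per gene. Points are single libraries, bars the exact Poisson intervals of 95%, and open triangles the level of 3 UMIs, the limit that a count of 0 allows. Igf2bp3 stays at 7.61 CPM at P8 and 7.87 in the adult, while the other genes lie under 1 CPM at both ages.

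Read against all genes with at least 20 UMIs over both libraries, the members' steps fell at different ages. A gene was called lower at a fold of 4 or more, with counts under 3 raised to 3. From E9.5 to E12.5 4.73% of 14714 genes were called, and 3 of 6 members, Hmga2, Lin28a and Lin28b. From E12.5 to E16.5 the background was 5.49%, and Hmga2 and Lin28b were called among the 5 members tested. From E16.5 to P8 it was 2.85%, and all 5 members tested were called, Lin28a having no UMI at either age. From P8 to the adult 6.22% of genes but none of the 3 members tested were called. From E9.5 to the adult 13.0% of genes and 6 of 6 members were called. The members were chosen on their fall from embryo to adult, of which each of these steps is a part, so nothing is read from the counts.

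Single endothelial barcodes held several of these RNAs at once mostly in the embryo. At least 3 of the 6 were found together in 55.5% of E9.5 barcodes, 24.5% at E12.5 and 1.77% at E16.5, and in none at P8 or in the adult, where 15 and 2 barcodes held a pair. None of the 6 was found in 4.82% of barcodes at E9.5 and in 93.6% in the adult. These shares also move with the depth of each barcode.

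Artery and vein barcodes differed in the levels of some members. Barcodes were marked by at least 2 of the artery markers Bmx, Sema3g, Gkn3, Efnb2, Gja5 and Gja4, of the vein markers Nr2f2, Slc38a5, Ackr1, Vwf and Icam1, or of the tip markers Apln, Esm1, Angpt2, Cxcr4 and Adm, and of at least 2 markers of no other of these sets, with lists added after the data were seen. Artery and vein sets held 879 and 602 barcodes at E9.5, 416 and 1724 at E12.5, and 185 and 1018 at E16.5. At P8 they held 325 and 1544. At E16.5 artery, vein and tip sets and barcodes of no set were 4.89, 26.9, 11.5 and 10.2% of endothelial barcodes. The rest bore at least 2 markers of more than 1 set and were left out. Igf2bp2 was alike in artery and vein barcodes at E9.5, at 55.8 CPM (50.3 to 61.7) and 58.3 (52.8 to 64.3). At E12.5 it stood at 44.0 (37.8 to 51.0) in artery against 23.6 (21.6 to 25.8) in vein barcodes, at E16.5 at 22.7 (15.3 to 32.4) against 6.51 (5.05 to 8.25), and at P8 at 2.59 (1.04 to 5.33) against 0.168 (0.0458 to 0.430). Hmga2 took the same order, with 554 (537 to 573) against 465 (449 to 481) at E9.5, 62.3 (54.8 to 70.5) against 35.3 (32.8 to 37.9) at E12.5 and 8.33 (4.16 to 14.9) against 0.574 (0.211 to 1.25) at E16.5. Its tip values of 546 (515 to 578) at E9.5 and 56.5 (50.6 to 63.0) at E12.5 overlapped the artery ones, and 1.55 (0.505 to 3.63) at E16.5 did not. For Igf2bp2 the tip value at E12.5, 24.9 (21.0 to 29.3), overlapped the vein one. The E16.5 values of Hmga2 rest on 11 and 6 UMIs. At P8 its intervals overlapped, with 1 UMI in artery and 14 in vein barcodes, and those of Igf2bp2 rest on 7 and 4.

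Igf2bp1 ran the other way at E9.5, with 157 CPM in artery and 199 in vein barcodes. Its intervals overlapped at E12.5, at 56.9 (49.8 to 64.7) and 66.7 (63.3 to 70.2), and at E16.5, at 18.2 (11.6 to 27.0) and 27.4 (24.3 to 30.7). At E16.5 it was also higher in barcodes with at least 3 of 10 cell cycle genes, at 33.9 CPM (30.5 to 37.7) against 16.4 (14.4 to 18.6) in those with none. Igf2bp2 was the reverse at both later embryonic ages, at 26.2 (24.9 to 27.6) against 38.7 (33.8 to 44.1) at E12.5 and 7.06 (5.53 to 8.89) against 11.3 (9.64 to 13.2) at E16.5. Igf2bp3 was higher in the cycling set at E12.5, at 68.3 (66.2 to 70.4) against 52.1 (46.4 to 58.4), and the intervals overlapped at E16.5, at 36.0 (32.4 to 39.9) and 32.0 (29.2 to 35.1). Each set is from 1 library per age, so the spread between animals was not measured.

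**Figure D2:**
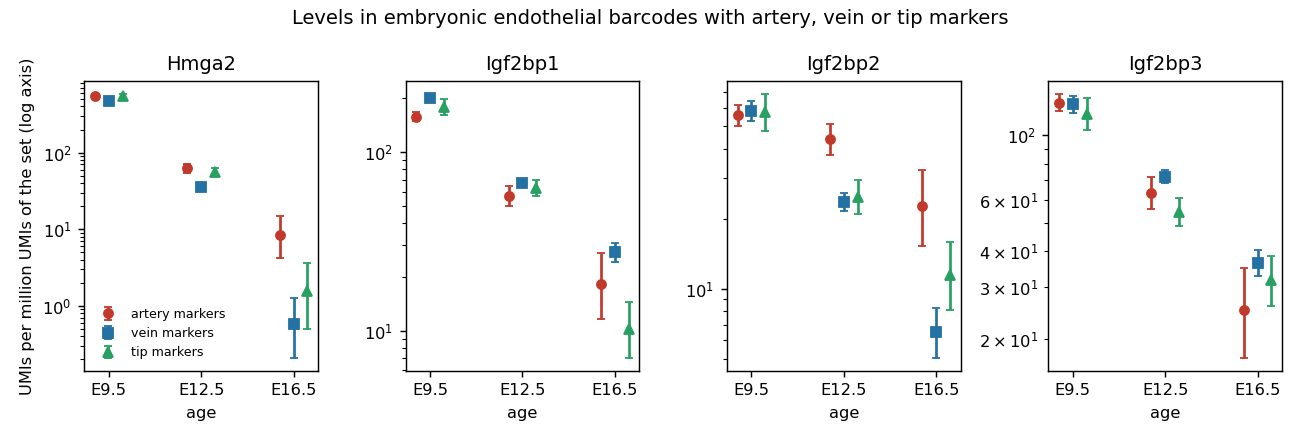
CPM within each set, on log axes that differ between genes, in embryonic endothelial barcodes with artery, vein or tip markers. Points are single libraries and bars exact Poisson intervals of 95%. The artery value of Igf2bp2 lies above the vein value at E12.5, 44.0 against 23.6, and at E16.5, 22.7 against 6.51.

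The genes around let-7 followed mixed courses. Of 11 genes of let-7 processing, all tested, 1 was at least 4-fold lower and 1 at least 4-fold higher in the adult than at E9.5, where 13.0% of all genes were lower and 18.7% higher. Tarbp2, a partner of Dicer, went from 88.3 to 16.8 CPM, and Xpo5, which exports precursors from the nucleus, was 2.11-fold lower. Zcchc6, a terminal uridylyltransferase of let-7 precursors, went from 28.5 to 123 CPM and Ago1 from 18.4 to 33.6. The median fold of the list was 1.47 lower in the adult, against 0.798 over all genes tested, so the typical gene was higher in the adult.

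Textbook let-7 targets other than the members were lower in 7 of 15 cases and higher in 1, with a median fold of 3.45. Trim71, a developmental timing regulator, had 2028 UMIs at E9.5 and 2 in the adult, or 44.3 and 0.0860 CPM. Myc went from 9.62 to 0.473 CPM, a 20.3-fold lower level. Igf1r, the receptor for insulin-like growth factors, was 31.6-fold higher in the adult, at 1045 against 33.1 CPM. None of the 8 protein partners of the Igf2bp family passed in either direction. Ybx1 fell short at 2.65-fold and Syncrip at 2.13-fold lower, and Fmr1 was the one partner with a higher adult level, 51.4 against 41.7 CPM.

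Among RNAs bound by the Igf2bp proteins, 3 of 4 were at least 4-fold lower in the adult. H19, an imprinted non-coding RNA, had 47634 UMIs at E9.5 and 0 in the adult, at least 8070-fold lower. Igf2, the growth factor that names the family, was 20.8-fold lower and Cd44 13.7-fold, while Actb was 1.94-fold lower and did not pass. All 10 cell cycle genes were at least 4-fold lower in the adult, such as Birc5 at 407 against 0.473 CPM and Cenpf at 237 against 0.430, and the smallest fold was 93.7, that of Ube2c. From E16.5 to P8, where all 5 members tested were at least 4-fold lower, 5 of the 10 had a lower level, such as Cdk1 at 102 and 79.9 CPM and Ccnb1 at 28.7 and 19.3. The other 5 had a higher one, with the largest rise in Mki67, from 12.6 to 70.4. The part of cell cycle genes in the members' fall was not tested. Among barcodes with at most 2 of the 10 cell cycle genes, the E9.5 level was 13.5-fold above the adult one for Igf2bp3 and 983-fold for Igf2bp1 with its count raised to 3, with the other 4 members between, and nothing is read from this contrast either.

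The genes most like each member over the 5 libraries were found by the root mean square difference of log2(CPM + 5), each profile centred on its mean, among 14599 genes with at least 50 UMIs. Igf2bp2 and Igf2bp3 were each nearest to the other, with a difference of 0.0964. The added 5 CPM hides most of the difference between them after birth, when Igf2bp2 was at 0.473 and Igf2bp3 at 7.87 CPM in the adult. For Lin28a they were Etv2 (0.0121), Hoxb8 and Pcsk1n, for Lin28b Dnph1 (0.0655), Vars and Dusp9, for Hmga2 Gap43 (0.434), Pf4 and Basp1, and for Igf2bp1 Clec1b (0.325), Gpx3 and Mdk. Etv2 had 20.0 CPM at E9.5 and 0.124 at E12.5. A profile over 5 libraries holds little detail, and all genes share the libraries.

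In the ATAC-seq lists, the members carried more peaks at E12 than in adults. Peaks overlapping the gene or within 50 kb of it were counted in each list. Around Hmga2 (chr10:120361268-120476469) the 7 E12 endothelial lists of brain and heart held 6 to 25 peaks with a median of 20.0, and the 4 adult ones 3 to 5 with a median of 4.0. For Lin28b (chr10:45376617-45486314) these were 3 to 17, median 14.0, against 0 to 1, median 0.0. For Igf2bp1 (chr11:95957163-96005944) they were 3 to 12, median 9.0, against 1 in all 4 adult lists. In these 3 genes no E12 list overlapped the adult lists, as in 12.3% of the 21631 protein-coding genes.

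Around Lin28a (chr4:134003330-134019196) the E12 lists held 2 to 12 peaks, median 9.0, and the adult lists 2 each. Igf2bp2 (chr16:22059009-22163299) had 2 to 13, median 10.0, against 1 to 2, and Igf2bp3 (chr6:49085218-49215469) 7 to 22, median 18.0, against 4 to 7. These 3 touched the adult range through 1 library, E12 heart endothelial 3, which had 39096 peaks, the fewest of the E12 endothelial lists. Without it all 6 members were apart, as were 64.9% of all genes, so this count says little about the members.

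Starts of other cell types' markers were also open in more E12 than adult endothelial lists: the median was 2 against 0 of 3 for neurons, 2 against 1 of 4 for mural cells and fibroblasts, and 2 against 0 of 4 for epithelium. Their part in the members' counts was not tested. Within brain alone 6 of 6 members were apart, as were 75.7% of all genes, and within heart 4 of 6 members and 32.8%. Every P6 list exceeded every adult list of its organ in at least 4 of 6 organs for 4 members, Hmga2, Lin28b, Igf2bp2 and Igf2bp3, and for 38.6% of all genes. Apart from E12 heart endothelial 3, every E12 endothelial list is longer than every adult one, and list length and age cannot be told apart in these counts. When each list was limited to its 19464 strongest peaks, the number in the shortest list, none of the members was apart between E12 and adult.

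**Figure D3:**
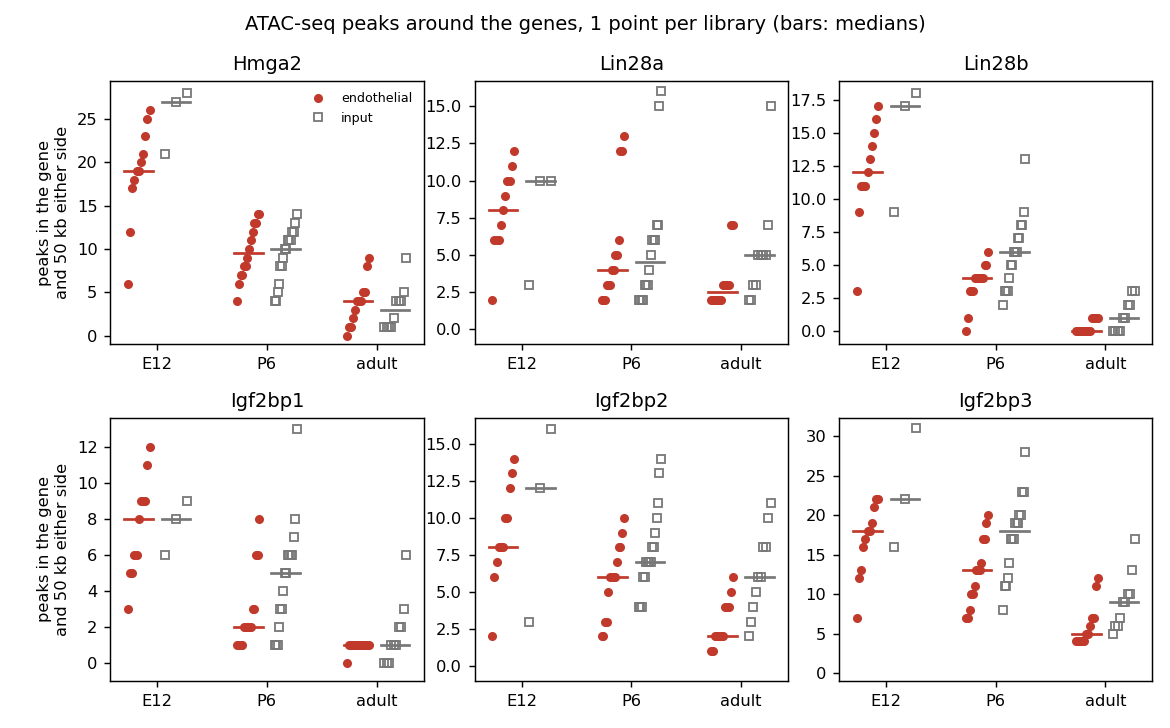
ATAC-seq peaks in each gene and the 50 kb on either side, by age, with 1 point per library and bars at the medians. Filled red points are endothelial lists of all organs and open grey squares input lists. For Lin28b the medians of the endothelial lists are 12 at E12, 4 at P6 and 0 in adults.

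At the gene starts, 5 of the 6 genes had a peak in every E12 endothelial list of brain, heart and trunk, 11 of 11. A start peak in all 11 was also found for 55.6% of the 17274 genes with a listed start. Among the members the exception was Lin28a, and that call turned with the distance: within 2000 bp of the start all 6 members were open in most E12 lists of brain and heart and lost in adults, as were 16.8% of genes. Over brain and heart, the 5 genes other than Lin28a had lost it by the call rule used here, a peak within 500 bp of the start in most E12 lists and in at most 50% of the adult lists. The same held for 14.9% of 17274 genes with a listed start, and for 22.6% of the 11379 that had a start peak in most E12 lists. The fold of the start peaks over the local background was low at E12, 2.20 to 3.86, where the lists' median folds over all peaks were 3.28 to 4.28. In the 5 genes their −log10 q ran from 1.7, for Igf2bp1 in E12 heart endothelial 3, to 17.9 for Igf2bp3. When each list kept only its 19464 strongest peaks, no member had a start peak in most E12 lists.

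Hmga2 kept its start peak into P6, in 13 of 14 endothelial lists, and in adults it was found in 2 of 12. Those were both liver lists, with folds of 3.05 and 2.65, and neither adult liver input list had one. The adult liver lists also held more peaks around Hmga2, 8 and 9, than the 0 to 5 of the other adult endothelial lists. The P6 list without the peak was brain endothelial 1, the shortest of that age. Input lists gave a like course, with the peak in 3 of 3 at E12, 14 of 16 at P6 and 2 of 10 in adults.

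Igf2bp3 had a start peak in 13 of 14 P6 and 0 of 12 adult endothelial lists, and in 3, 13 and 0 of the 3, 16 and 10 input lists. No adult list, endothelial or input, had the peak. Of the 6 members Igf2bp2 had the peak in the most adult endothelial lists, 4 of 12, and in 14 of 14 at P6. Both adult retina lists had it, as did 1 of brain and 1 of liver. The retina lists held 43149 and 45276 peaks and that brain list 45094, in an adult range of 19464 to 47334. Organ and list length cannot be told apart here. In adult input lists it was found in 7 of 10.

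Lin28b, at its listed start, and Igf2bp1 had the peak in fewer P6 lists. For Lin28b, whose upper end kept a peak in most P6 lists as given further on, it was in 5 of 14 P6 endothelial lists, 2 of brain, 2 of heart and 1 of kidney, and in 0 of 12 adult ones. For Igf2bp1, whose start was taken as the upper end of the gene since the promoter table lists none, it was in 3 of 14, 2 of heart and 1 of retina, and in 0 of 12. Over all 66 lists the start states of Lin28b and Igf2bp1 were the same in 59, as were those of Hmga2 and Igf2bp3. In input lists Lin28b had the peak in 3 of 3, 4 of 16 and 0 of 10, and Igf2bp1 in 3 of 3, 5 of 16 and 0 of 10, so the loss was not particular to endothelial nuclei. Lin28a had a start peak in 2 of 11 E12 endothelial lists, 1 of heart and 1 of trunk, and in 1 input list, of E12 brain.

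**Figure D4:**
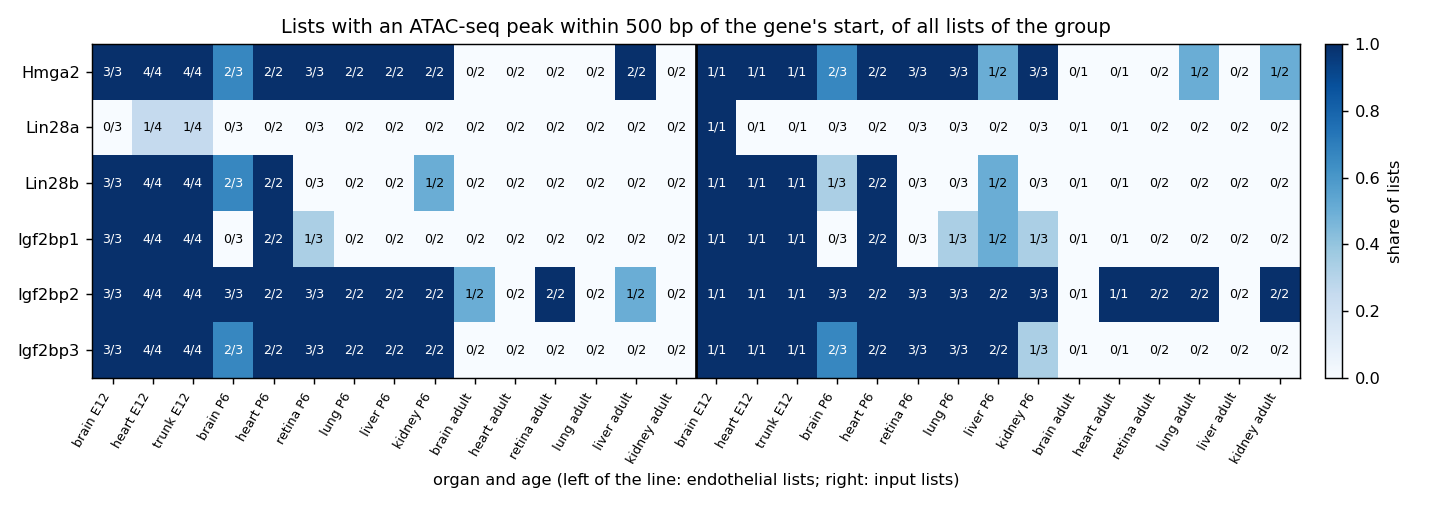
Share of lists with a peak within 500 bp of each gene's start, by organ and age, with endothelial groups left of the line and input groups right of it. Each cell gives the lists with a peak over all lists of the group. Hmga2 has it in 2 of 2 adult liver endothelial lists and in none of the other adult endothelial lists.

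The promoters of 4 members are printed for comparison, since their start peaks were found in different shares of the lists. RefSeq windows of 300 bases, from 250 before the start to 50 after, were at hand for 5 of the 6 genes, on GRCm38.p6. Capitals mark GGGCGG, the GC box, CCAAT and the E-box CACGTG on either strand, which are found in 46.7, 38.5 and 7.91% of 21045 promoters of the same length. Hmga2, which kept its peak until P6, lies at chr10:120476420-120476719, minus strand.
Hmga2: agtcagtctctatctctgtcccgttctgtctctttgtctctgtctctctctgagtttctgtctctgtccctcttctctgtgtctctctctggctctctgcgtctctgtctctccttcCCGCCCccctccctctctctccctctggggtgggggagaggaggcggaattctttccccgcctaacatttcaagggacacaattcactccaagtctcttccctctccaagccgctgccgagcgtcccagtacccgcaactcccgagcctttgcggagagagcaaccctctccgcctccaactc
Igf2bp3, with a peak at P6 and none in adults, lies at chr6:49214905-49215204, minus strand.
Igf2bp3: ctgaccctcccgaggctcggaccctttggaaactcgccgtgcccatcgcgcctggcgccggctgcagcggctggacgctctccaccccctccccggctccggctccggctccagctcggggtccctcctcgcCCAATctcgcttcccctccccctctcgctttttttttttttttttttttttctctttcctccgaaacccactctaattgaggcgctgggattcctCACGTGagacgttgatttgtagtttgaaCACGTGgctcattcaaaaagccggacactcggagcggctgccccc
Lin28b, whose listed start had a peak in fewer P6 lists, lies at chr10:45470152-45470451, minus strand.
Lin28b: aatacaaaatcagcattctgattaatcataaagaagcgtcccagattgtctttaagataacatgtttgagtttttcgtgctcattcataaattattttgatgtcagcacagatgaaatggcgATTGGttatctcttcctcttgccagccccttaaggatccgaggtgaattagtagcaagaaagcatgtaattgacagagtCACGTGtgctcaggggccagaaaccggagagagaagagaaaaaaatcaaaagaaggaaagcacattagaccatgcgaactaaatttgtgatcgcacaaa
Lin28a, which had few peaks within 500 bp of its listed start even at E12 but more within 2000 bp, lies at chr4:134018767-134019066, minus strand.
Lin28a: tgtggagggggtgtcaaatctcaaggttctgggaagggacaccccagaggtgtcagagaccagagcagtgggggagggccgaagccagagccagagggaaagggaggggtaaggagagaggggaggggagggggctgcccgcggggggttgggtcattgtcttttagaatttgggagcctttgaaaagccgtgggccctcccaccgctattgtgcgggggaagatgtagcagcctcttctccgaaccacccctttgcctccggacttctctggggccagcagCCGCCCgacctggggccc
Hmga2 and Lin28a each hold 1 GC box and Igf2bp2 holds 2. Lin28b and Igf2bp3 each hold CCAAT, and CACGTG is found 1 time in Lin28b and 2 times in Igf2bp3. The CG pairs number 12 in Hmga2, 10 in Lin28a, 8 in Lin28b, 25 in Igf2bp3 and 47 in Igf2bp2, against a median of 13, and 98.1% of promoters hold fewer than Igf2bp2. A match of letters is not a site of binding.

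Beyond the starts, peaks of all 66 lists were merged into regions, of which 289 lay in the 6 windows. Of these, 64 had a peak in over 50% of the E12 endothelial lists, and 34 of the 64, or 53.1%, had none in any adult endothelial list, where 33.2% of 81458 such regions genome-wide did. The share was 83.3% around Lin28b (10 of 12), 80.0% around Igf2bp1 (4 of 5), 52.6% around Hmga2 (10 of 19), 42.9% around Lin28a (3 of 7) and Igf2bp2 (3 of 7), and 28.6% around Igf2bp3 (4 of 14). Each is a small number of regions that share a neighbourhood. A list was counted for a region with a peak anywhere in it. A region over a start can thus hold more lists than the start peak within 500 bp.

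Within Hmga2 the region at chr10:120401720-120402492, 74.4 kb into the gene, had a peak in 11 of 11 E12, 4 of 14 P6 and 0 of 12 adult endothelial lists. A pair of others, at chr10:120432770-120433565 and chr10:120461829-120462582, had one in 10 of 11 E12 and 0 adult lists. By contrast chr10:120383826-120385801, 91.7 kb into the gene, had one in 11 of 11, 14 of 14 and 10 of 12, so parts of the Hmga2 gene kept their peaks in adults. The gene table used gives gene ends only, so exons and introns were not told apart.

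Around Lin28b the region over the listed start, chr10:45467999-45470619, had a peak in 11 E12, 6 P6 and 0 adult endothelial lists. A further region at the upper end of the gene, chr10:45485292-45487112, named here after its values were seen, had one in 11, 12 and 1. So most P6 lists had a peak at the upper end of Lin28b, where the listed start had one in fewer. Another region, chr10:45334833-45336304, also had 11 E12 and 0 adult lists but overlaps the neighbour Bves. At Lin28b the region with the most adult lists, chr10:45372969-45373928, had 3 of 12.

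For Igf2bp1 the region over its start, chr11:96004559-96007934, had 11 E12, 6 P6 and 0 adult lists, and chr11:95982054-95983042, 23.4 kb into the gene, had 9, 1 and 0. Its window's commonest adult region, chr11:96034320-96035457, in 11 of 12 lists, overlaps the neighbour Snf8. For Igf2bp3 chr6:49214593-49215982, over the start, had 11, 13 and 0, and chr6:49227023-49227561, 12.3 kb before the start, had 10, 1 and 0.

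Around Igf2bp2 chr16:22113540-22114264, 49.4 kb into the gene, had a peak in 9 E12, 5 P6 and 0 adult endothelial lists, and in 0 of the 29 input lists. For Lin28a the region over the start, chr4:134017343-134019059, had 6, 0 and 0, though a peak within 500 bp of the start was in 2 of 11 E12 lists. A region 1.4 kb before the start, chr4:134019398-134021116, named here after its values were seen, had 9, 5 and 2. The region chr4:134041704-134042313, 23.2 kb before the start, had 10, 5 and 0. A peak in all 12 adult endothelial lists was found in 2 regions around Lin28a, over Hmgn2 and Dhdds, in 1 around Igf2bp2, over Senp2, and in 4 around Igf2bp3. Of these 4, 2 overlap Malsu1, 1 overlaps Tra2a, and chr6:49236359-49236712, which overlaps no other gene, lies 21.6 kb before the start.

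**Figure D5:**
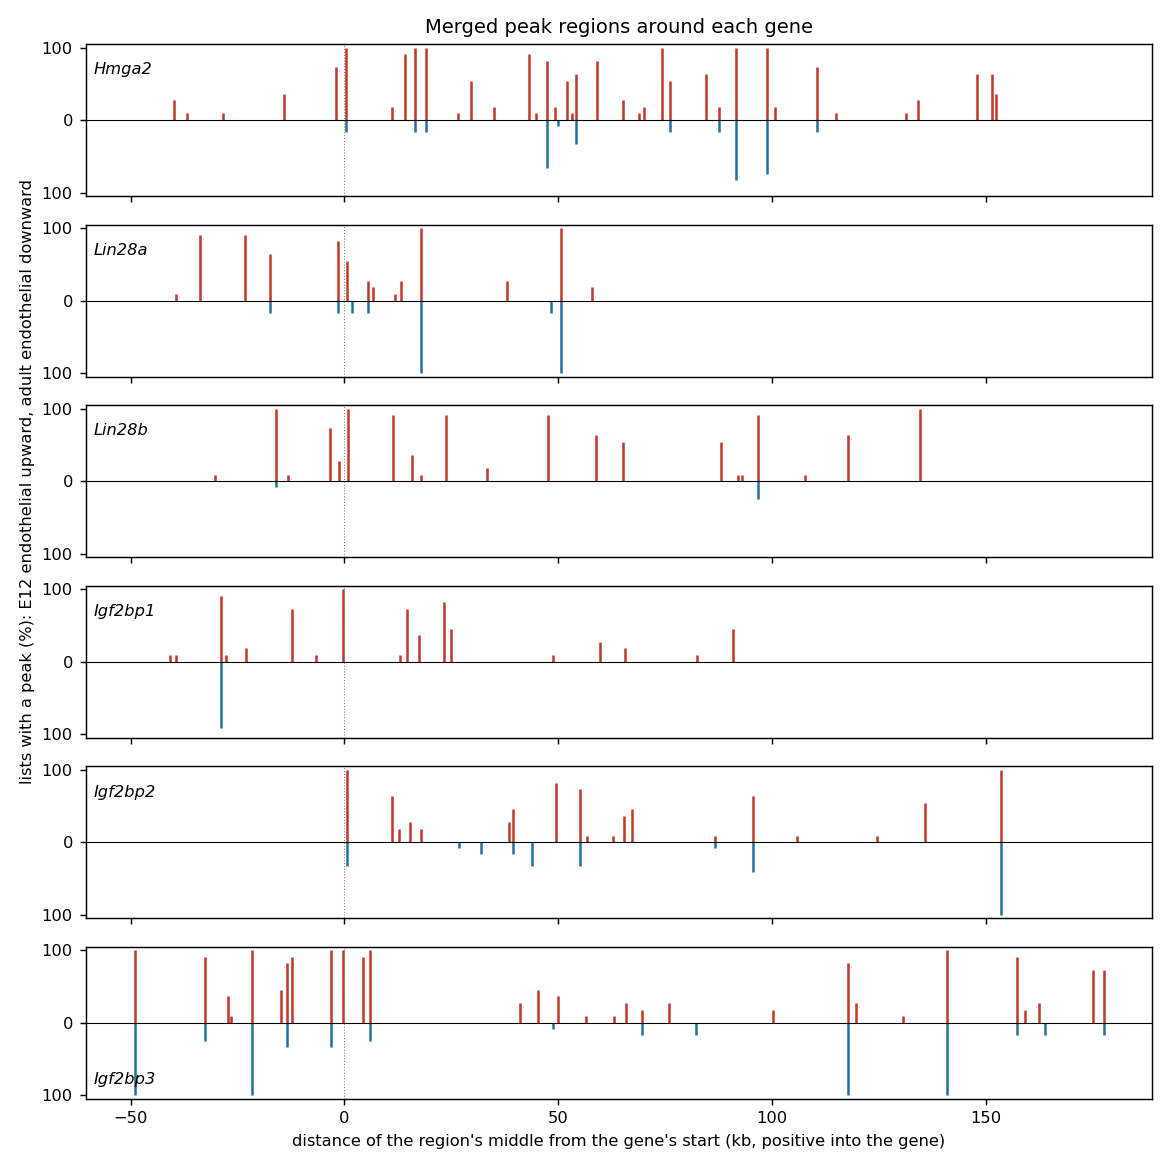
Merged peak regions around each gene by distance from its start in kb, positive into the gene. Bars rise with the percentage of the 11 E12 endothelial lists with a peak and fall with that of the 12 adult endothelial lists. Around Lin28b 10 of the 12 regions seen in over 50% of the E12 lists have no adult bar.

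The start states most like each member's were looked for among protein-coding genes, for members with a start peak in 10 to 90% of lists. Lin28b was nearest to Igf2bp1 itself, then Gm42166 and Dusp27. Igf2bp1 had the same state as Ucn in 60 of 66 lists, then Lin28b and Nppb. Hmga2 shared 62 each with Mdfi, Spata4 and Zfp777, Igf2bp2 63 with Susd4, and Igf2bp3 61 with Pik3ap1. All genes share the lists and their lengths.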

How the data were processed

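Single-cell counts per gene and barcode were deposited by the authors as raw 10x matrices, made with Cell Ranger 4.0.0 per the file headers of the E9.5, P8 and adult matrices. The E16.5 matrix has no gene table, so its rows were read in the order of the other 4, which are identical. Its level of each gene was checked against the other libraries. ATAC-seq peaks were called per library by the authors with MACS 2.1.2 as broad peaks without a control, per the file headers. The deposited columns are an unscaled pileup signal, a fold over the local background and −log10 q-values. Alignment with Bowtie2 is named in the submitters' processing notes. Bulk RNA-seq tables were not used here, since their transcript identifiers could not be paired with genes.

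UMIs were summed per library in Python 3.11.15 with numpy 2.4.6, pandas 2.3.3 and scipy 1.17.1, and figures drawn with matplotlib 3.10.9. Gene positions, starts, promoters and microRNAs are those of RefSeq on GRCm38.p6. Counting steps were tested on simulated data. Named genes are the 6 members, the 2 genes of each other list with the largest fold each way between E9.5 and adult (1 such gene is not reported here), the 3 genes most like each member, and per member the regions with the most E12 and no adult lists and with the most adult lists. Etv2's levels, Mki67, Ube2c, Cdk1, Ccnb1, Igf2, Cd44 and Actb where outside this rule, and the subsets of barcodes, were picked after their values were seen. The members and lists were chosen with earlier results of these data known.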

Additional observations from a re-analysis of the deposited data

How the results depend on the processing

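From E9.5 to the adult, the contrast the members were chosen on, all 6 were called lower under each of 9 other settings, as were 9.23 to 24.4% of all genes, and nothing is read from this. A 2-fold rule and a floor of 1 UMI could not have removed a call. With a mitochondrial share of at most 5%, the fold of Igf2bp1, its adult count raised to 3, fell from 1344 to 744. Thinned shares kept E9.5 highest for all 6 members. The ATAC-seq counts moved with list length. With each list held to its 19464 strongest peaks, 0 members in place of 3 had every E12 list above every adult one, 1 in place of 4 had every P6 list above adult in at least 4 organs, and 0 in place of 5 had lost the start peak, where the shares of all genes were 1.74, 0.763 and 4.19%. With peaks of −log10 q of at least 5, 0 members and 3.52% of genes were apart between E12 and adult, or 6 members and 64.1% of genes without E12 heart endothelial 3, while 5 members and 17.7% of genes had lost the start peak. With lists held to at most 39096 peaks, the length of the shortest E12 list and a setting added after the data were seen, 3 members and 6.17% of genes had lost it. Leaving out each library in turn gave 3 to 6 members for E12 against adult, where 6 came without E12 heart endothelial 3, with 64.9% of all genes, 4 to 6 for P6 against adult, where 6 came without P6 kidney endothelial 2, with 50.0% of all genes, and 5 in every case for the start, with 9.85 to 14.8% of genes. No paired analysis was possible because these results come from no test, and the single-cell ages have 1 library each. Start peaks of low fold limit the ATAC-seq and few UMIs the postnatal levels: 1 UMI in the adult is 0.0430 CPM.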

Other observations

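The let-7 hairpins themselves were looked up in the peak lists, a choice made after the data were seen. Mirlet7f-2 (chrX:151912346-151912428), whose precursor carries the GGAG motif in its loop, had a peak within 500 bp in 10 of 11 E12, 2 of 14 P6 and 0 of 12 adult endothelial lists. None of the 29 input lists had a peak there. Mirlet7i (chr10:122985640-122985724) had one in 11 of 11, 14 of 14 and 12 of 12 endothelial lists and in 3, 16 and 9 of the 3, 16 and 10 input lists. Mirlet7c-2 had one in 0, 1 and 1 endothelial lists and in 0, 5 and 4 input lists, and the other 9 of the 12 hairpins had none in any list. A peak beside a hairpin says nothing of the level of the mature microRNA, which was not measured in the files used here.

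Trim71, a let-7 target of development that is no member, had 44.3, 4.40, 0.447, 0.0496 and 0.0860 CPM in order of age, with 3 UMIs at P8 and 2 in the adult.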
